A study of Homo sapiens with 32 samples.

Results

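Cells of the line K-562 that had been made resistant to 0.1 µM nilotinib were compared with treatment-naive K-562 cells. The comparison used 16 of the 32 expression arrays of the series, chosen by their labels: 8 arrays of nilotinib-resistant cells and 8 arrays of naive cells. K-562 is a human line from chronic myeloid leukemia with erythroid features, and both groups share that origin and differ in drug selection alone, as far as the labels say. The resistant cells had been exposed to drug at concentrations raised in steps, whereas the naive cells carry no treatment in their labels. One growth text, which describes medium without either drug, is given for all samples, so the labels leave unclear if nilotinib was still present when RNA was taken. The nilotinib arrays fall into 2 lines (biological replicates), line 1 and line 2, with 4 technical arrays each, and the labels do not say if a line is 1 clone. The naive arrays fall into 2 sets of 4 titled with the letters S and K, whose meaning the labels do not give. The other 16 arrays come from 4 lines resistant to imatinib, 2 at 0.5 µM (low imatinib) and 2 at 2 µM (high imatinib), and served for the spread and for 1 comparison.

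Nilotinib is a kinase inhibitor that binds the ABL1 kinase domain in its inactive form. In chronic myeloid leukemia, this kinase is fused to BCR and drives growth through STAT5, MAPK and PI3K signalling, with targets such as PIM1, CISH and the SOCS genes under STAT5. Cells can become resistant through changes of the fusion kinase itself, through transporters that move the drug, or through other kinases that take over its signals.

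The deposited values are array levels on what reads as a log2 scale. Base 2 was taken from their range, 1.24 to 14.2, and is not stated, and each difference below is a difference of log2 levels, nilotinib minus naive, so that 1 stands for a doubling. Of 53617 features, 16098 carried 1 gene symbol, and 14884 genes were tested after a gene with several features was represented by its brightest. The 4 arrays of each line or set were averaged first, and limma was fitted to the 8 set means. Errors given as ± are standard errors from that fit, which pools the spread within all 4 groups, and adjusted p-values are Benjamini-Hochberg values over all 14884 genes with a threshold of 0.05. An exact two-sided permutation test of 2 sets against 2 cannot go below 0.33. Nothing in the labels says that the naive sets or the lines were grown apart, so p-values measure the spread between these samples only, which may be technical. In RNA from many cells, fewer cells with a transcript and less of it per cell cannot be told apart. The label was checked against markers: GATA1, the master regulator of red cell genes, stood at 9.49 in nilotinib lines and 9.37 in naive cells and was brighter than 96.7% of genes, and KLF1 was brighter than 90.7%. HBG1, HBZ, TFRC and ITGA2B were not analysed here.

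In nilotinib-resistant cells, 58 genes rose (0.39% of the genes tested) and 8 fell (0.0537%), with adjusted p-values from 0.046 upward, and 4755 genes had an unadjusted p under 0.05. In 65 of the 66 calls all 8 nilotinib arrays lay outside the range of all 8 naive arrays. By position alone, both nilotinib lines lay above both naive sets for 4866 genes (32.7%) and below both for 5166 (34.7%), and all 8 arrays lay above all 8 naive arrays for 1946 genes (13.1%) and below for 464 (3.12%). The calls were fragile while their signs were not: each of the 66 kept its sign under every alternative in which it was measured, but the number called was 0 with quantile normalization, 0 with only the nilotinib and naive sets in the fit and 1615 with arrays shifted to one median. Without naive S, or without either low imatinib line, no gene passed. Without naive K only FN1 passed, without nilotinib line 1 only CR1L among the 66 (6 genes in all), without nilotinib line 2 there were 58 calls, 9 of them among the 66, and without either high imatinib line there were 1187, which held all 66.

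The differences followed brightness. Genes were divided into 5 equal groups by their mean level, and from the dimmest to the brightest the median difference was -0.21, -0.23, -0.10, 0.32 and 0.44. In the same order, both lines lay above both naive sets for 5.54%, 9.2%, 24.2%, 55.9% and 68.7% of the genes. They lay below both for 54.4%, 59.8%, 40.2%, 13.2% and 5.98%. The groups met at levels of 5.49, 6.16, 6.85 and 7.74. By median level, the STAT5, MAPK, BCL2, hypoxia and DNA damage lists below belong to the second brightest group. The receptor kinase, platelet, stem cell, adhesion and interferon lists belong to the middle one. The heat shock, endoplasmic reticulum stress, synthetase and ribosomal lists belong to the brightest. The interquartile range of an array was 1.80 to 2.29 in the nilotinib arrays and 1.41 to 1.69 in the naive arrays, so the nilotinib arrays were the wider ones. The main axis along which technical arrays of one RNA source differed, called the technical axis here, held 16.8% of the variance within sets. It scored 21.2 and 12.3 in nilotinib lines 1 and 2 and -20.8 and -25.1 in naive S and K, and its gene weights correlated at r = 0.677 with the nilotinib difference across genes, which are not independent replicates. Its part in the results was not tested. Values with this axis taken out are given beside the gene groups below, where they are called adjusted medians. Taking it out also removes any difference between nilotinib and naive cells that lies along the axis, technical or not.

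**Figure D1:**
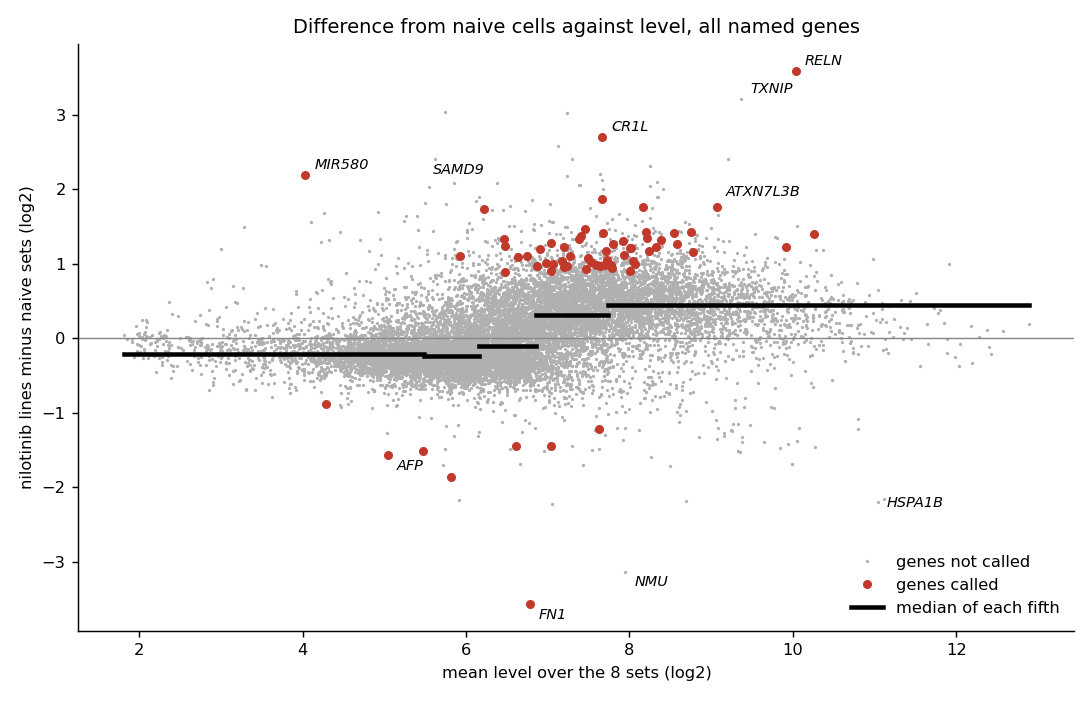
The difference between nilotinib lines and naive sets (vertical axis, log2) is plotted against the mean level over the 8 sets (horizontal axis, log2) for 14884 genes. The 66 called genes are red and the median of each of the 5 groups of genes by level is a black bar. The bars lie at -0.21 for the dimmest group and 0.44 for the brightest, and RELN and FN1 lie farthest from them among the called genes.

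The called genes farthest above naive cells encode a secreted matrix protein, a relative of a complement receptor, zinc finger proteins and a microRNA. RELN encodes reelin, a large extracellular glycoprotein known from neuronal migration. On the 8 nilotinib arrays its lowest, median and highest levels were 10.15, 10.92 and 11.49, against 6.98, 7.31 and 7.41 on the 8 naive arrays, and the groups lay far apart. RELN rose by 3.59 ± 0.51, 12-fold (95% confidence interval 2.39 to 4.79 on the log2 scale, adjusted p = 0.0485). CR1L, related to the complement receptor CR1, ran from 7.79 to 9.36 with a median of 8.38 on the nilotinib arrays and from 5.05 to 6.37 with a median of 5.90 on the naive arrays. It rose by 2.70 ± 0.34 (adjusted p = 0.046), with line 2 at 9.09 above line 1 at 7.94.

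ATXN7L3B, which encodes a relative of a histone deubiquitinase cofactor, averaged 9.44 and 9.54 in nilotinib lines 1 and 2 and 7.77 and 7.69 in naive S and K, a rise of 1.76 ± 0.17 (adjusted p = 0.046). The second feature of ATXN7L3B gave 0.93 ± 0.22 in the same direction. The zinc finger genes ZNF480 (1.86 ± 0.25) and ZNF75A (1.76 ± 0.16) also rose with adjusted p = 0.046. GRN, which encodes the lysosomal and secreted growth factor progranulin, stood at 11.1 and 10.8 in the nilotinib lines and 9.74 and 9.28 in the naive sets and rose by 1.40 ± 0.19. EIF4EBP2, a repressor of cap-dependent translation, rose by 1.22 ± 0.16, the E3 ubiquitin ligase TRIM32 by 1.33 ± 0.15, and the ubiquitin shuttle UBQLN2 by 0.98 ± 0.13, each with adjusted p = 0.046. GRN, EIF4EBP2, TRIM32 and UBQLN2 were picked from the calls after their values were seen.

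The 8 genes that fell were FN1, AFP, PCED1B, PCED1B-AS1, NAV2, IL9R, ATF5 and MIR320B1. FN1 encodes fibronectin, the matrix protein to which hematopoietic cells attach through integrins. Its 8 nilotinib arrays read 5.64, 5.77 and 5.95 (lowest, median and highest), against 8.65, 9.29 and 10.15 on the 8 naive arrays. The 2 nilotinib lines were alike at 5.72 and 5.81 while naive S stood at 9.84 and naive K at 8.81, and the difference was -3.56 ± 0.31, an 11.8-fold lower level (adjusted p = 0.046). Both nilotinib levels of FN1 lay below the lowest array median, 5.85, and no detection calls were used, so this fold is one of measured levels and may understate the difference. AFP, the fetal serum protein alpha-fetoprotein, stood at 4.69 and 4.44 in the nilotinib lines and 6.11 and 6.16 in the naive sets, and fell by 1.57 ± 0.14. Both nilotinib levels of AFP lay under 5.49, the upper limit of the dimmest group of genes.

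IL9R, the interleukin 9 receptor, stood between 6.36 and 6.70 on the nilotinib arrays and between 7.67 and 8.20 on the naive arrays, and fell by 1.45 ± 0.21 (adjusted p = 0.0485). NAV2, a cytoskeleton-associated protein of the neuron navigator family, fell by 1.44 ± 0.16 (adjusted p = 0.046), and its other 2 features gave -0.86 ± 0.26 and -0.52 ± 0.17. PCED1B averaged 5.41 in the nilotinib lines and 7.26 in the naive sets and fell by 1.85 ± 0.25. Its antisense gene PCED1B-AS1 fell by 1.52 ± 0.20, and both had adjusted p = 0.046. Signal from overlapping transcripts of this pair may be shared.

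**Figure D2:**
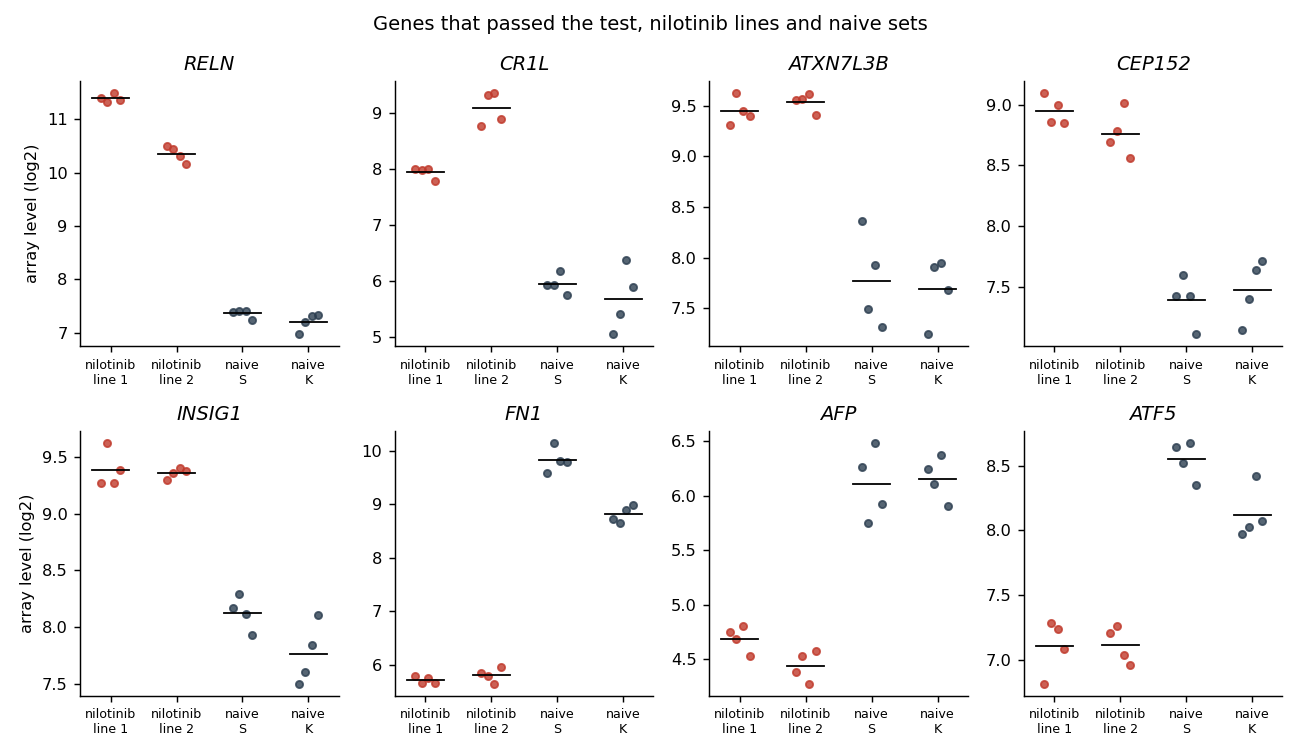
Each panel shows 1 called gene, with the log2 level of single arrays as points (nilotinib lines in red on the left, naive sets in dark blue on the right) and the mean of the 4 arrays as a bar. In all 8 panels the nilotinib arrays and the naive arrays do not overlap, and RELN and CR1L differ between the nilotinib lines while INSIG1 and FN1 hardly do.

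Several of the widest gaps had large errors and did not pass the test. TXNIP encodes an arrestin-like protein that restrains glucose uptake and binds thioredoxin, ARRDC4 is its close relative, and SESN3 is a sestrin, an inhibitor of mTORC1. TXNIP stood at 9.59 in nilotinib line 1 and 10.9 in line 2, against 6.89 in naive S and 7.19 in naive K, a difference of 3.21 ± 0.62 (adjusted p = 0.0574), and a second TXNIP feature gave 1.66 ± 0.64. ARRDC4 stood at 8.42 and 8.67 in the nilotinib lines and 5.85 and 5.62 in the naive sets (2.81 ± 0.58, adjusted p = 0.0575). SESN3 stood at 8.20 and 7.23 in the nilotinib lines and 5.15 and 5.13 in the naive sets (2.58 ± 0.55, adjusted p = 0.0589). For all 3 genes every nilotinib array lay above every naive array.

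These 3 belong to a list of 21 measured brakes on growth signalling. Of its members 15 (71.4%) lay above both naive sets and 4 (19%) below. None passed the test and 9 had an unadjusted p under 0.05, as had 4755 of all 14884 genes. The median difference was 0.33 (adjusted median 0.16), against -0.03 over all genes and 0.32 in the second brightest of the 5 groups, where the list's median level of 7.15 lies. In that group 55.9% of all genes lay above and 13.2% below. SESN1, a sestrin under p53, stood 0.95 ± 0.27 higher, ARRDC3 1.16 higher, and DEPDC5, part of a complex that restrains mTORC1, 0.65 higher. DDIT4, another mTORC1 inhibitor, differed by -0.72, at 8.73 in nilotinib lines and 9.44 in naive cells.

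Other genes with wide gaps that missed the threshold lay on both sides. DAAM1, a formin regulator of actin, stood 2.12 ± 0.46 higher (adjusted p = 0.0615), MBNL3, a regulator of RNA splicing, 1.85 ± 0.43 higher (adjusted p = 0.0667), OSBPL6, an oxysterol-binding protein relative, 2.32 ± 0.64 higher (adjusted p = 0.0797), and DDX53, a testis helicase gene, 1.64 ± 0.45 higher (adjusted p = 0.0785). NMU, the neuropeptide neuromedin U, differed by -3.13 ± 0.69 (adjusted p = 0.0616), and the lines were unequal, with 8.91 in nilotinib line 1 and 6.49 in line 2 against 10.8 in both naive sets. CD80, a costimulatory ligand for T cells, differed by -1.70 ± 0.29 (adjusted p = 0.052), with all nilotinib arrays between 4.95 and 5.21 and all naive arrays between 6.47 and 7.12. CAPRIN2, an RNA-binding protein, differed by -1.69 ± 0.43 (adjusted p = 0.0721) and the cancer-testis gene SAGE1 by -2.17 ± 0.45 (adjusted p = 0.0575). USP17L12 and USP17L9P, members of a family of near-identical deubiquitinase genes, had the same values on every set, 9.17 and 9.09 in the nilotinib lines and 11.1 and 10.5 in the naive sets, and count as 1 measurement of the family (-1.68 ± 0.28, adjusted p = 0.052). With the technical axis taken out this difference was -0.85, and a second feature of USP17L9P gave -0.39 ± 0.15.

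Genes of cell division lay above naive cells as groups, and 3 centriole genes passed the test. CEP152, which brings the kinase PLK4 to the mother centriole, stood between 8.56 and 9.10 on the nilotinib arrays with a median of 8.85, and between 7.11 and 7.72 with a median of 7.42 on the naive arrays. It rose by 1.42 ± 0.13 (adjusted p = 0.046). NIN, which anchors microtubules at the centriole, rose by 1.34 ± 0.17, and CCP110, which caps growing centrioles, by 1.46 ± 0.18, both with adjusted p = 0.046. CEP162, a cilium assembly protein, stood 1.75 ± 0.36 higher (adjusted p = 0.0575). Of 41 measured centriole and centrosome genes, 36 (87.8%) lay above both naive sets and 2 below, and their median difference was 0.57 (adjusted median 0.17), at a median level of 7.52, also in the second brightest group with its 55.9% above.

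Of 35 measured mitosis genes, 32 lay above both naive sets, none below, and none passed the test, while 24 had an unadjusted p under 0.05. Their median difference was 0.68 (adjusted median 0.28), 0.64 in line 1 and 0.75 in line 2. The kinesin KIF23, needed for cytokinesis, stood at 9.45 and 9.53 in the nilotinib lines and 8.67 and 7.86 in the naive sets (1.23 ± 0.28, adjusted p = 0.0663), KIF20A stood 1.04 ± 0.16 higher (adjusted p = 0.0508) and the cyclin CCNB2 1.01 ± 0.25 higher (adjusted p = 0.0709). Once the technical axis was taken out, KIF23 stood 0.72 higher, KIF20A 0.39 and CCNB2 0.49. Of 25 measured DNA replication genes, 23 lay above and none below, with a median difference of 0.68 (adjusted median 0.27), and none passed. MCM5, a subunit of the replicative helicase, stood 1.26 ± 0.26 higher (adjusted p = 0.0574), GINS2, a helicase partner, 1.07 ± 0.44 higher (adjusted p = 0.153), and TYMS, the enzyme that makes thymidylate, 1.02 ± 0.35 higher (adjusted p = 0.111). The median level of the mitosis genes was 8.47 and that of the replication genes 8.48, both within the brightest of the 5 groups of genes, where 68.7% lay above naive cells.

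Genes of chromosome structure stood among the calls, and they were picked from the calls after their values were seen. SMC5, of the SMC5/6 repair complex, rose by 1.17 ± 0.13, and SLF1, which links that complex to damaged DNA, by 1.28 ± 0.16. SMC2, a core subunit of condensin, rose by 1.15 ± 0.16. CENPK (1.33 ± 0.15), CENPW (1.04 ± 0.13) and CENPP (0.97 ± 0.13), which belong to the inner kinetochore, rose as well. BARD1, the partner of BRCA1, rose by 1.01 ± 0.12, INIP, part of a complex that binds single-stranded DNA, by 1.41 ± 0.16, and ASF1B, a histone chaperone of S phase, by 1.20 ± 0.17. The adjusted p lay at 0.046, 0.0462 or 0.0485 for each of these 9 genes.

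The calls were also counted by gene symbol and by chromosome, after the calls had been seen and with no test. Of the 58 rises 12 were genes with a ZNF symbol, which make up 3.3% of all genes (491), and 8 of the 12 lie on chromosome 19. Among the 491, 273 (55.6%) lay above both naive sets and 76 (15.5%) below, with a median difference of 0.33 (adjusted median 0.16). Chromosome 9 held 9 of the 58 rises and 3.88% of the genes: SMC5, CENPP, TRIM32, CAAP1, TSTD2, TMEM245, INIP, SMC2 and NDOR1. Over all 578 genes of chromosome 9, 35.1% lay above and 32.4% below naive cells, against 32.7% and 34.7% of all genes, and the median was 0.02 in line 1 and -0.02 in line 2. Copy number was not measured.

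Most genes of sterol synthesis lay above naive cells, and 1 passed the test. INSIG1, which holds the sterol sensor SCAP in the endoplasmic reticulum and is itself a target of the SREBP factors, stood between 9.27 and 9.63 on the nilotinib arrays with a median of 9.37 and between 7.50 and 8.30 with a median of 8.02 on the naive arrays. It rose by 1.43 ± 0.18 (adjusted p = 0.046), and the 2 nilotinib lines were alike at 9.39 and 9.36. HMGCS1, an early enzyme of the pathway, stood at 9.31 in line 1 and 7.97 in line 2, against 6.93 and 7.02 in the naive sets (1.67 ± 0.47, adjusted p = 0.0823), and the sterol carrier STARD4 stood 1.09 ± 0.29 higher (adjusted p = 0.0752). Removal of the technical axis left 1.07 for INSIG1, 1.21 for HMGCS1 and 0.44 for STARD4. The genes of the SREBP factors themselves, SREBF1 and SREBF2, stood 0.89 and 0.83 higher. Of 21 measured sterol genes 15 lay above both naive sets and 1 (TM7SF2) below, with a median difference of 0.49 (adjusted median 0.22). That is 71.4% above, against 55.9% of all genes in the second brightest of the 5 groups, which holds the list's median level of 7.71. This level lies just under 7.74, where the brightest group begins, and in that group 68.7% lay above, near the share of the list.

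Stress genes lay the other way or were mixed. ATF5, a stress-induced transcription factor under ATF4, fell by 1.22 ± 0.18 (adjusted p = 0.0497), to 7.11 and 7.12 in nilotinib lines 1 and 2, against 8.55 and 8.12 in naive S and K. Of 18 measured ATF4 targets none lay above both naive sets and 8 (44.4%) lay below, with a median difference of -0.24 (adjusted median -0.50), and ATF5 alone passed. The list's median level of 7.96 lies in the brightest of the 5 groups, where 68.7% of all genes lay above and 5.98% below. CTH, an enzyme of cysteine synthesis, differed by -1.23 ± 0.65 (adjusted p = 0.226) and the secreted stress protein STC2 by -0.80 ± 0.21 (adjusted p = 0.0759). ATF4 itself, at 9.47 in nilotinib lines and 9.59 in naive cells, differed by -0.12. Among 19 heat shock genes 1 lay above and 7 below (median -0.09, adjusted median -0.19). HSPA1B and HSPA1A, near-identical copies of the heat-inducible HSP70 gene whose signals cannot be told apart, differed by -2.19 ± 0.44 (adjusted p = 0.0574) and -2.15 ± 0.47 (adjusted p = 0.0615). HSPA1B read 11.1 and 10.0 in the nilotinib lines and 12.3 and 13.2 in the naive sets, and the 8 other features of the pair lay between -2.07 and -2.33. The large chaperone HSPA4L differed by -1.02 ± 0.91 (adjusted p = 0.437).

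The endoplasmic reticulum stress genes (12 measured) had 2 members above and 3 below, with a median of -0.13 (adjusted median -0.58). The sensor kinase EIF2AK3 stood 0.58 ± 0.17 higher (adjusted p = 0.0824), SEC61B, a part of the protein-conducting channel, 0.45 ± 0.17 higher (adjusted p = 0.128), and the chaperone HYOU1 at -0.36 ± 0.16 (adjusted p = 0.165), though its second feature gave 0.06 ± 0.19. With the technical axis taken out these were 0.27 for EIF2AK3, 0.04 for SEC61B and -0.64 for HYOU1. Of 17 aminoacyl-tRNA synthetases 3 lay above and 3 below, with SARS1 at -0.59 ± 0.29 (adjusted p = 0.196), YARS1 at -0.24 ± 0.17 (adjusted p = 0.342) and HARS1 0.40 ± 0.14 higher (adjusted p = 0.115, but -0.04 with the technical axis taken out). Their median was 0.04 and the adjusted median -0.27.

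Among genes next to the drug's target, BCR and KIT stood apart between the 2 nilotinib lines, while ABL2 and DDR1 lay on one side of naive cells in both. BCR, one partner of the fusion, stood at 8.85 in line 1 and 7.67 in line 2, on either side of naive S at 7.84 and naive K at 7.91 (0.39 ± 0.36, adjusted p = 0.452). Among 6 measured kinases that nilotinib binds or their fusion partner, 2 lay above both naive sets, ABL2 by 0.33 ± 0.30 (adjusted p = 0.451, with 0.14 on a second feature and -0.19 with the technical axis taken out) and the collagen receptor DDR1 by 0.13 ± 0.12 (adjusted p = 0.462, and -0.11 after quantile normalization). The median of the 6 was 0.08 and the adjusted median -0.05. KIT, the stem cell factor receptor and a nilotinib target, stood at 9.24 in line 1 and 5.05 in line 2, against 8.44 and 8.87 in naive S and K.

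Of 14 measured STAT5 targets none lay above both naive sets and 2 lay below, and the median was 0.48 in line 1 and -0.62 in line 2 (adjusted median over both -0.19). PIM1, a survival kinase induced by STAT5, stood between 9.64 and 9.96 on the 4 arrays of line 1 and between 6.64 and 6.96 on those of line 2, against 10.2 to 10.8 on the 8 naive arrays (-2.18 ± 0.84, adjusted p = 0.134). OSM, a cytokine gene at a low level, differed by -0.35 ± 0.13 (adjusted p = 0.125, and 0.06 with the technical axis taken out). The feedback inhibitor SOCS1 differed from naive cells by 1.37 in line 1 and -1.61 in line 2, CISH by 0.50 in line 1 and -1.90 in line 2, and SOCS2 by 0.22 in line 1 and -1.36 in line 2. The D-type cyclin CCND2 stood at 8.77 in line 1 and 5.51 in line 2, against 8.25 and 7.83 in the naive sets, and PIM2 at 9.65 in line 1 and 7.51 in line 2, against 9.12 and 8.45. MYC was 0.47 above naive cells in line 1 and 0.22 above in line 2, and its level in line 2, 9.60, lay between naive K at 8.99 and naive S at 9.77. KIT, SOCS1, SOCS2, CISH, CCND2, PIM2 and MYC were named after their values were seen, and with 1 line of each kind the parting of the lines carries no test.

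Receptor kinases and the SRC family stood on both sides of naive cells. MERTK, a receptor kinase of the TAM family, stood at 7.77 and 7.82 in the nilotinib lines and 6.68 and 6.73 in the naive sets (1.09 ± 0.42, adjusted p = 0.136), the erythropoietin receptor EPOR 0.78 ± 0.28 higher (adjusted p = 0.119) and IGF1R 0.74 ± 0.38 higher (adjusted p = 0.211). Of 20 measured receptor kinases 6 lay above and 8 below both naive sets (median 0.05, adjusted median -0.02). In the SRC family list, 2 of 8 lay above and 5 below (median -0.40, adjusted median -0.08). The list's median level of 6.89 lies at the lower end of the second brightest of the 5 groups, where 13.2% of all genes lay below. The middle group next to it had 40.2% below. LYN, a member expressed in myeloid cells, stood 0.93 above naive cells in line 1 and 0.15 above in line 2 (0.54 ± 0.24, adjusted p = 0.17). SRC differed by -0.55 ± 0.14 (adjusted p = 0.0746), and BLK (-0.49 ± 0.12, adjusted p = 0.07) and LCK (-0.38 ± 0.12, adjusted p = 0.0914), kinases of lymphocytes, were dim in all sets. With the technical axis taken out these were -0.305 for SRC, -0.187 for BLK and -0.024 for LCK.

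Of 18 measured MAPK output genes 5 lay above both naive sets and 2 below (median 0.14, adjusted median -0.05). JUNB stood 0.79 ± 0.20 higher (adjusted p = 0.0714) and FOSL1, another AP-1 subunit, 0.86 ± 0.26 higher (adjusted p = 0.0894), and ETV5 0.43 ± 0.20 higher (adjusted p = 0.183), while the phosphatase DUSP6 differed by -0.08. Without the technical axis the differences were 0.28 for JUNB, 0.63 for FOSL1 and 0.42 for ETV5. In the BCL2 family 6 of 19 lay above and 3 below (median 0.24, adjusted median 0.06). The pro-apoptotic BAX stood at 7.70 and 7.39 in the nilotinib lines and 6.72 and 6.78 in the naive sets (0.80 ± 0.15, adjusted p = 0.0574), BNIP3 0.76 ± 0.40 higher (adjusted p = 0.222) and the anti-apoptotic MCL1 0.50 ± 0.48 higher (adjusted p = 0.466). With the technical axis taken out these were 0.60 for BAX, 0.19 for BNIP3 and 0.05 for MCL1. BCL2 itself stood at 7.41 in line 1 and 5.25 in line 2, against 7.63 and 6.77 in the naive sets. For drug handling 6 genes were measured, all glutathione transferases (median -0.11, adjusted median -0.04), with GSTO1 0.74 ± 0.40 higher (adjusted p = 0.227), GSTT1 0.27 ± 0.20 higher (adjusted p = 0.356) and GSTM1 at -0.58 ± 0.14 (adjusted p = 0.0696). With the technical axis taken out these were 0.44 for GSTO1, 0.10 for GSTT1 and -0.03 for GSTM1. Drug transporters were not analysed here.

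Erythroid genes lay above naive cells in part. Of 19 measured erythroid factors and surface genes, 12 (63.2%) lay above both naive sets and none below, with a median of 0.63 (adjusted median 0.44), and none passed the test. The list's median level was 7.53, in the second brightest of the 5 groups, where 55.9% of all genes lay above naive cells. GFI1B, a repressor needed for red cell and platelet formation, stood at 7.81 and 7.98 in the nilotinib lines and 6.70 and 7.13 in the naive sets (0.99 ± 0.18, adjusted p = 0.0544). KLF1, the activator of adult globin genes, stood 0.86 ± 0.34 higher (adjusted p = 0.143), TAL1 0.90 higher, and IKZF1 0.87 ± 0.17 higher (adjusted p = 0.0574). Of 12 measured heme and hemoglobin genes 9 (75%) lay above and 2 below, with a median of 0.68 (adjusted median 0.32). Their median level of 7.42 lies in the same group, with its 55.9% above. The heme genes above included FECH, which inserts iron into heme (1.35 ± 0.71, adjusted p = 0.222), UROD (0.68 ± 0.22, adjusted p = 0.103) and PPOX (0.73 ± 0.38, adjusted p = 0.22), enzymes of the same chain. AHSP, which stabilises alpha globin, read 5.46 in nilotinib lines and 5.62 in naive cells.

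Platelet lineage genes were mixed, with 7 of 19 above and 5 below (median 0.17, adjusted median 0.21). THBS1, an adhesive glycoprotein of platelets and matrix, stood at 9.50 in line 1 and 7.80 in line 2, against 6.63 and 6.66 in the naive sets (2.01 ± 0.52, adjusted p = 0.0738). The collagen receptor GP6 stood 1.18 ± 0.45 higher (adjusted p = 0.13) and the thrombin receptor F2R 1.13 ± 0.59 higher (adjusted p = 0.218), while the platelet chemokine PF4 differed by -0.78. Stem and progenitor genes had 8 of 21 above and 7 below (median and adjusted median both -0.03), with LIN28B 0.67 ± 0.21 higher (adjusted p = 0.0955), MEIS1 0.96 ± 0.42 higher (adjusted p = 0.162) and IGF2BP3 0.65 ± 0.23 higher (adjusted p = 0.117). With the technical axis taken out these were 0.07 for LIN28B, 0.69 for MEIS1 and 0.10 for IGF2BP3.

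Each list of markers of other cell types had more members below naive cells than above. Of 17 lymphoid markers none lay above and 14 (82.4%) below, with a median of -0.27 (adjusted median -0.07) and a median level of 6.27. Of 10 mast cell and basophil markers 1 lay above and 7 below (median -0.42, adjusted median -0.30), of 20 granulocyte and monocyte markers 2 above and 9 below (-0.23, adjusted -0.07), and of 12 epithelial and fibroblast markers 1 above and 7 below (-0.35, adjusted -0.12). Not all of these markers were dim or set apart: EPCAM stood at 7.28 in nilotinib lines and 8.48 in naive cells and LYZ at 7.46 in nilotinib lines and 7.75 in naive cells, and neither had both lines on one side of both naive sets. The dimmest 2 of the 5 groups of genes, with levels up to 6.16, had 54.4% and 59.8% below naive cells. The middle group, which holds the median level of the lymphoid markers, had 40.2% below. With the technical axis taken out, the examples given next ran from -0.892 for CSF3R to -0.036 for KRT5. No marker of these lists passed the test, and examples are IL7R at -0.40 ± 0.12 (adjusted p = 0.0942), TPSAB1 at -0.59 ± 0.13 (0.0655), CPA3 at -0.44 ± 0.13 (0.0894), TPSD1 at -0.51 ± 0.21 (0.148), FCN1 at -0.54 ± 0.15 (0.0802), CSF3R at -0.72 ± 0.32 (0.172), CD14 at -0.42 ± 0.13 (0.0909), CLDN3 at -0.53 ± 0.17 (0.0974), KRT5 at -0.45 ± 0.14 (0.0933) and KRT14 at -0.39 ± 0.14 (0.125), each with its adjusted p in brackets.

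**Figure D3:**
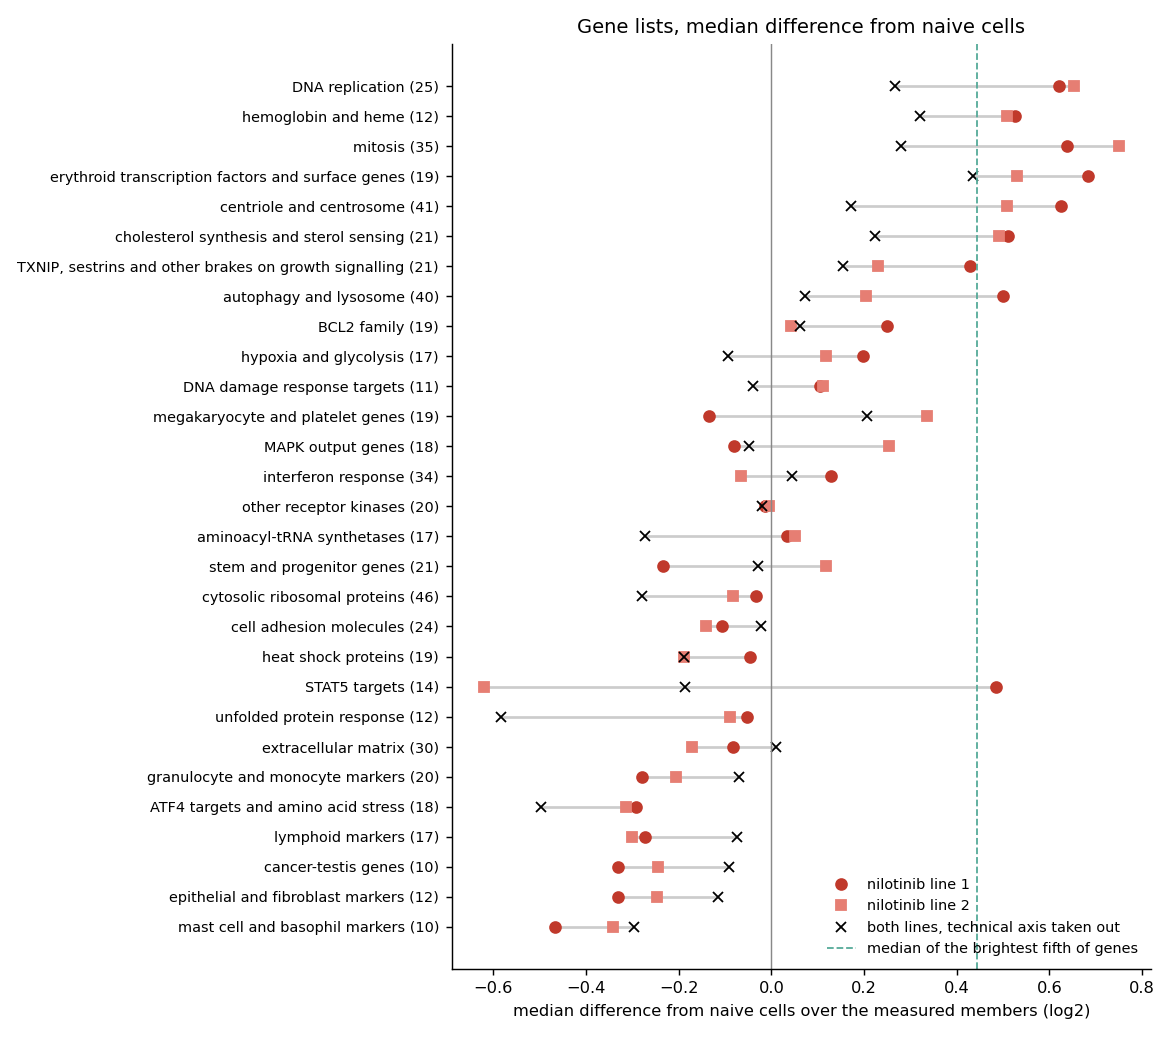
Median difference from naive cells (horizontal axis, log2) over the measured members of each gene list with at least 10 members, whose number is in brackets, for nilotinib line 1 (red circles), line 2 (light red squares) and both lines with the technical axis taken out (crosses). The dashed line marks the median of the brightest of the 5 groups of genes, 0.44. Mitosis genes lie at 0.64 and 0.75 in lines 1 and 2, mast cell markers at -0.47 and -0.34, and the STAT5 targets are the list whose lines stand farthest apart, at 0.48 and -0.62.

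Of the matrix genes 6 of 30 measured lay above naive cells and 15 (50%) below, RELN rose and FN1 fell, and the median was -0.16 (adjusted median 0.01). The list's median level of 6.27 lies in the middle of the 5 groups, where 40.2% of all genes lay below. Of 24 cell adhesion genes 6 lay above and 8 below (median -0.07, adjusted median -0.02). CD226, an adhesion receptor of lymphocytes and platelets, stood at 6.71 in line 1 and 8.82 in line 2, against 5.87 and 5.55 in the naive sets (2.05 ± 0.73, adjusted p = 0.119), CD58 0.80 ± 0.19 higher (adjusted p = 0.0686) and ICAM2 0.88 ± 0.26 higher (adjusted p = 0.0872). Of 40 autophagy and lysosome genes 22 lay above and 1 below, with a median of 0.32 (adjusted median 0.07). That share above, 55%, was near the 55.9% of all genes in the second brightest of the 5 groups, where the list's median level of 7.63 lies. ATG16L1, which fixes the lipidation site of autophagosomes, stood 1.11 ± 0.19 higher (adjusted p = 0.052), ATG14 1.20 ± 0.28 higher (adjusted p = 0.0676) and ATG2B 0.77 ± 0.19 higher (adjusted p = 0.0712). Taking the technical axis out left 0.56 for ATG16L1, 0.65 for ATG14 and 0.12 for ATG2B.

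Hypoxia and glycolysis genes had 8 of 17 above and 4 below (median 0.20, adjusted median -0.09), with EPAS1, which encodes HIF-2 alpha, at -1.02 ± 0.23 (adjusted p = 0.0638) and the peptide hormone ADM at -0.50 ± 0.13 (adjusted p = 0.0721). Targets of the DNA damage response had 4 of 11 above and 2 below (median 0.18, adjusted median -0.04), with RRM2B 0.76 ± 0.29 higher (adjusted p = 0.13, and 0.105 with the technical axis taken out). Of 46 ribosomal protein genes 11 lay above and 12 below (median -0.03, adjusted median -0.28), with RPL39 at -0.80 ± 0.23 (adjusted p = 0.0861, but -0.23 ± 0.28 on a second feature), RPL31 at -0.81 ± 0.22 (adjusted p = 0.0791) and RPS26 0.63 ± 0.20 higher (adjusted p = 0.101). Of 10 cancer-testis genes 1, PRAME, lay above (1.06 ± 0.48, adjusted p = 0.178) and 5 (50%) below (median -0.31, adjusted median -0.09), among them TEX14 (-0.40 ± 0.15, adjusted p = 0.12, and 0.02 with the technical axis taken out). Their median level of 5.98 lies in the second dimmest of the 5 groups, where 9.2% of all genes lay above and 59.8% below, near the shares of this list. Of the proteasome list 1 gene, the assembly factor POMP, was measured (0.18 ± 0.16, adjusted p = 0.431, and -0.19 with the technical axis taken out).

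Of 1088 microRNA genes 77 (7.08%) lay above both naive sets and 526 (48.3%) below, with a median of -0.24 (adjusted median -0.11), and 3 rose and 1 fell. Over all genes 32.7% lay above and 34.7% below. In the dimmest 2 of the 5 groups of genes 5.54% and 9.2% lay above, 54.4% and 59.8% below, and the medians were -0.21 and -0.23. The microRNA shares were near those of dim genes. Array features at these genes can read the hairpin or its host transcript and do not measure the mature microRNA. The 3 rises were MIR580, MIR590 and MIR3198-1 (0.95 ± 0.13, adjusted p = 0.046), and the sequence of MIR3198-1 is not printed here. Mature sequences of 7 other microRNA genes are printed from RefSeq (GRCh38.p14), 5′ to 3′. Capitals mark the seed (bases 2 to 8), which pairs with target messages. All 7 were found in RefSeq, and their 10 mature forms share no seed.
hsa-miR-580-5p: uAAUGAUUcaucagacucagau
hsa-miR-580-3p: uUGAGAAUgaugaaucauuagg
hsa-miR-590-5p: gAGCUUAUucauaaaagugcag
hsa-miR-590-3p: uAAUUUUAuguauaagcuagu
hsa-miR-3189-5p: uGCCCCAUcugugcccuggguagga
hsa-miR-3189-3p: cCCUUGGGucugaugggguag
hsa-miR-320b: aAAAGCUGgguugagagggcaa
hsa-miR-301b-3p: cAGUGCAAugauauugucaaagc
hsa-miR-4525: gGGGGGAUgugcaugcugguu
hsa-miR-3689f: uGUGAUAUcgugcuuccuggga

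MIR580 stood between 4.51 and 5.78 on the nilotinib arrays and between 2.58 and 3.67 on the naive arrays and rose by 2.19 ± 0.31 (adjusted p = 0.0485, and 1.31 with the technical axis taken out). It lies within LMBRD2 on chromosome 5, which stood 0.86 ± 0.20 higher (adjusted p = 0.0676). MIR590, named after its values were seen, rose by 1.73 ± 0.22 (adjusted p = 0.046), and its host EIF4H stood 0.37 ± 0.13 higher (adjusted p = 0.12). MIR3189 stood 1.71 ± 0.63 higher (adjusted p = 0.126, and 0.82 with the technical axis taken out), while its host GDF15 differed by -0.01 ± 0.58. MIR320B1 fell by 0.88 ± 0.12 (adjusted p = 0.046) at a level of 3.78 and 3.76 in the nilotinib lines and 4.70 and 4.60 in the naive sets, and it was the 1 call whose arrays overlapped, from 3.42 to 4.38 on nilotinib arrays and from 4.11 to 5.08 on naive arrays. MIR4525 differed by -1.38 ± 0.29 (adjusted p = 0.0588) and MIR3689F by -1.27 ± 0.21 (adjusted p = 0.052), but with the technical axis taken out these were -0.31 and -0.39. MIR3689F belongs to a cluster of near-identical copies.

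SAMD9, a growth-restraining gene of the interferon response, had one of the widest gaps and stood apart from the imatinib lines as well. Its 8 nilotinib arrays read from 7.57 to 7.95 with a median of 7.78, and its 8 naive arrays from 5.16 to 5.92 with a median of 5.73, a difference of 2.08 ± 0.33 (adjusted p = 0.0514). Of 34 measured interferon response genes 10 lay above both naive sets and 8 below, with a median of 0.13 (adjusted median 0.05). SP110, a nuclear body protein, stood 0.98 ± 0.30 higher (adjusted p = 0.0914), the RNA sensor IFIH1 1.12 ± 0.42 higher (adjusted p = 0.127), IFIT3 0.88 higher and TRIM21 0.69 higher. ISG15 read 7.23 in nilotinib lines and 7.38 in naive cells, and IFITM1 10.1 and 10.7. DDX60L, a helicase relative induced by interferon and named after its values were seen, stood 1.30 ± 0.26 higher (adjusted p = 0.0574).

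The factors that interferon activates bind repeats of GAAA, so promoters (250 bases before to 50 after the start) were searched on both strands for GAAANNGAAA. It was found in 1255 of 35116 RefSeq windows (3.57%). Counted by gene, where any window of a gene sufficed, 418 of 10749 measured genes with a window held it (3.89%). Among measured interferon genes of the list that had a window, 17 of 27 did. Of 8 such genes above naive cells, 4 held it (SAMD9, IFIH1, IFIT3 and TRIM21), and of the 19 others 13 did, so its presence did not separate the members that stood higher. The stretches of the first 3 and of DDX60L are printed to show the match, or for IFIT3 its reverse complement (capitals), on the strand of the gene, from GRCh38.p14. A match is a description of these letters.
SAMD9, chr7:93118081-93118140, minus strand: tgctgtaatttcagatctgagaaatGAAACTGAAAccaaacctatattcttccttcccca
DDX60L, chr4:168480508-168480567, minus strand: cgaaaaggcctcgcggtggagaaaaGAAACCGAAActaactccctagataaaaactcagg
IFIH1, chr2:162318685-162318730, minus strand: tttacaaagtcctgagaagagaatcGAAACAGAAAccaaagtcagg
IFIT3, chr10:89332410-89332469, plus strand: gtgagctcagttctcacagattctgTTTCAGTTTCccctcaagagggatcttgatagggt

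The nilotinib lines were also compared with the 4 imatinib lines, in the same fit, to find which differences from naive cells were not shared by cells resistant to the older drug. No gene passed (0%, limma on set means), with a smallest adjusted p of 0.638 and 1088 genes at an unadjusted p under 0.05, while the fit on 32 arrays with the set as a random block called 384. The number was 8 without nilotinib line 1, 44 without nilotinib line 2 and 37 without high imatinib line 1. By position, both nilotinib lines lay above all 4 imatinib lines and both naive sets for 773 genes (5.19%) and below for 1618 (10.9%). The following values are therefore descriptions. Several of the widest differences from naive cells were also present in the imatinib lines. RELN stood between 10.0 and 11.8 in the 4 imatinib lines, CR1L between 7.92 and 8.43 and TXNIP between 9.10 and 10.95. FN1 stood between 5.84 and 6.35 there and AFP between 4.68 and 4.85. Median differences from naive cells in low and high imatinib lines were 0.77 and 0.53 for mitosis genes and 0.84 and 0.44 for replication genes. They were 0.36 and 0.41 for centriole genes, 0.635 and 0.42 for sterol genes, -0.70 and -0.245 for ATF4 targets and 0.41 and 0.10 for erythroid factors. NIN stood between 8.66 and 9.06 in the imatinib lines, above its 8.33 and 8.21 in the nilotinib lines. The genes below were named because they differed from the imatinib lines.

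SAMD9 stood 1.70 above the imatinib lines (95% confidence interval of the difference 1.03 to 2.38), with 7.68 and 7.83 in the nilotinib lines, 6.21 and 5.70 in the low imatinib lines and 6.65 and 5.65 in the high imatinib lines. TFR2, the second transferrin receptor of erythroid and liver cells, stood at 9.02 and 9.10 in the nilotinib lines, against 7.43 and 8.02 in low imatinib lines, 6.85 and 8.06 in high imatinib lines and 8.05 and 8.03 in naive cells. GALNT5, an enzyme that starts O-linked sugar chains, read 9.77 and 9.76 in nilotinib lines, 8.78 and 8.91 in low imatinib lines, 8.72 and 6.26 in high imatinib lines and 8.47 and 8.19 in naive cells. NEO1, the netrin receptor neogenin, was named after its values were seen and is 1 of the 58 rises (1.10 ± 0.14, adjusted p = 0.046). It read 6.81 and 6.61 in nilotinib lines and between 5.60 and 5.90 in the 6 other sets. For these 4 genes the nilotinib lines were the highest 2 of 8 sets.

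CT83, a cancer-testis gene, stood 0.97 above the imatinib lines and 0.62 ± 0.19 above naive cells (adjusted p = 0.0892), and ARHGAP42 1.10 above the imatinib lines and 0.44 ± 0.23 above naive cells (adjusted p = 0.223). Below all other sets lay MIR301B (-0.71 against imatinib lines, -0.73 ± 0.14 against naive cells, adjusted p = 0.0574), MIR320B1 (-0.60 against imatinib lines), the USP17L family (-0.88 against imatinib lines) and DENND2C, a regulator of Rab proteins (-1.23 against imatinib lines, -0.41 ± 0.28 against naive cells, adjusted p = 0.318). Another 2 genes, chosen after their values were seen, had nilotinib lines level with naive cells and apart from imatinib lines. WT1, a transcription factor of leukemic blasts, read 7.85 and 7.26 in nilotinib lines, between 6.08 and 6.20 in the 4 imatinib lines and 7.85 and 7.19 in naive cells. SGIP1, an endocytic adaptor of neurons, read 5.86 and 6.34 in nilotinib lines, between 7.36 and 8.79 in the imatinib lines and 6.02 and 6.13 in naive cells.

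**Figure D4:**
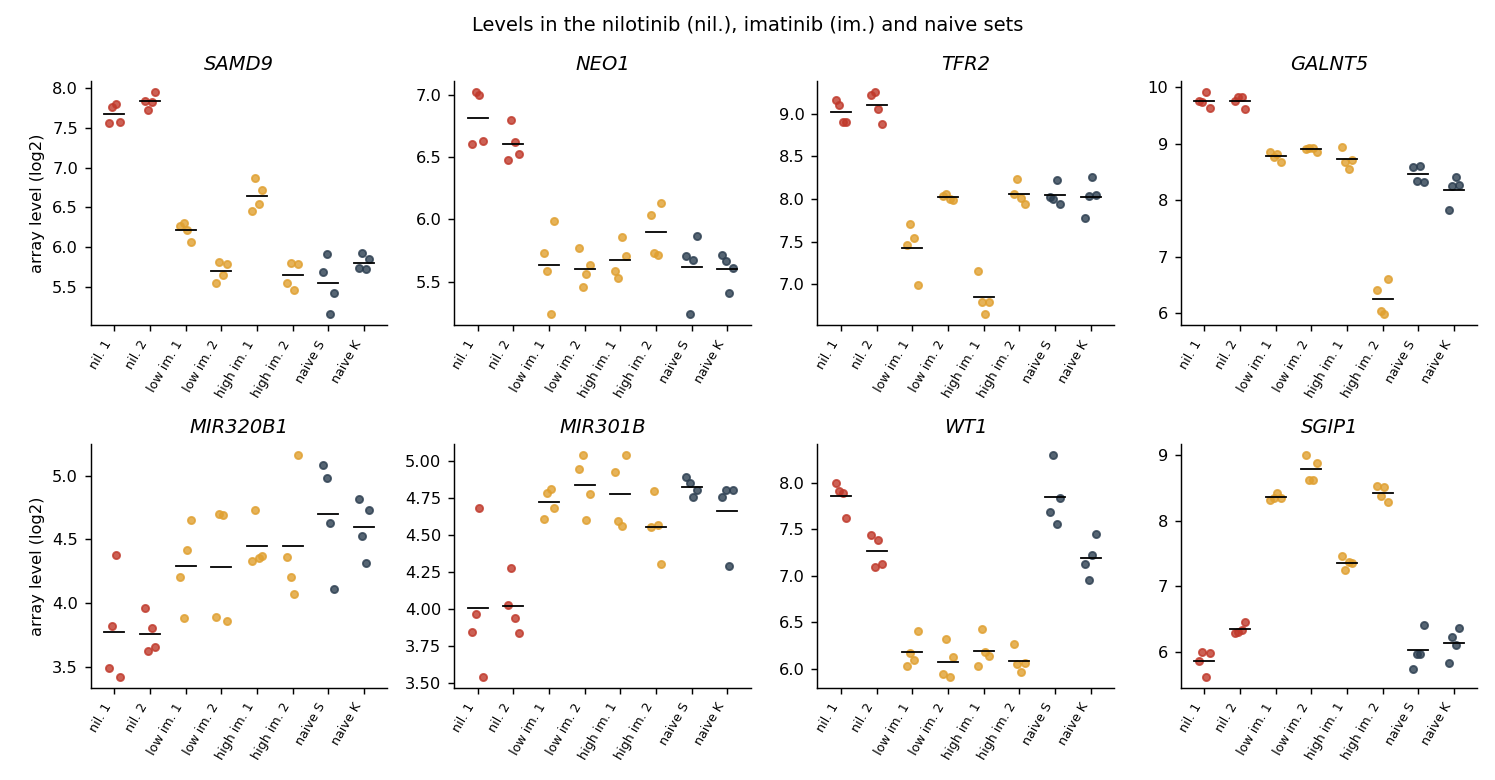
Each panel shows 1 gene with the log2 level of single arrays as points and the set mean as a bar, for 2 nilotinib lines (red), 4 imatinib lines (yellow) and 2 naive sets (dark blue). SAMD9, NEO1, TFR2 and GALNT5 are highest in both nilotinib lines, MIR320B1 and MIR301B lowest, WT1 is lowest in the 4 imatinib lines and SGIP1 highest there.

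The longest run of neighbouring genes set apart from naive cells in 1 nilotinib line lay on chromosome 4. HERC3, a ubiquitin ligase, stood between 11.2 and 11.4 on the 4 arrays of line 1, at 7.38 on average in line 2, and at 7.08 and 7.23 in naive S and K. HSD17B13, a lipid droplet enzyme, stood at 8.99 in line 1 and 5.12 in line 2, against 4.94 and 5.12 in the naive sets, and FAM13A-AS1 at 9.16 in line 1 and 5.86 in line 2, against 5.51 and 5.71. These 3 belong to 14 measured genes that follow each other on the chromosome: HSD17B13, HSD17B11, NUDT9, SPARCL1, DSPP, DMP1, IBSP, MEPE, SPP1, HERC6, HERC5, HERC3, NAP1L5 and FAM13A-AS1. In line 1 all 14 stood 1.83 to 4.18 above naive cells (median 3.47), and in line 2 they lay between -0.59 and 0.25 of them. The run holds genes of unlike function, from the bone matrix genes DSPP, DMP1, IBSP, MEPE and SPP1 to the sugar-nucleotide hydrolase NUDT9 (11.8 in line 1, 7.50 in line 2, against 7.45 and 7.72 in naive cells). The flanking measured genes, KLHL8 at -0.11 and TIGD2 at 0.73, lay within 1 of naive cells in line 1.

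A search for at least 5 neighbouring genes that all differ from naive cells by at least 1 found no run of more than 6 genes elsewhere in any of the 6 resistant lines. Over both lines, HERC3 differed by 2.20 ± 1.07 (adjusted p = 0.196), HERC6 by 1.78 ± 1.05 (adjusted p = 0.265), and none of the 14 passed. The number of gene copies was not measured, and its part was not tested.

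**Figure D5:**
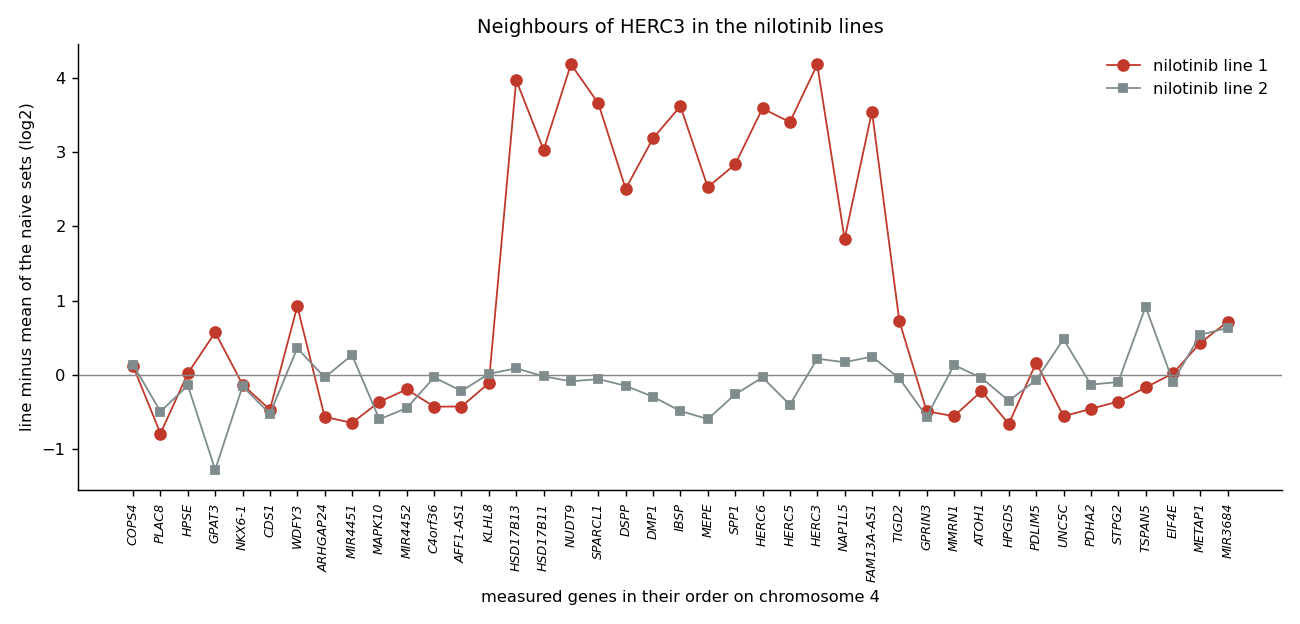
Difference of each nilotinib line from the mean of the naive sets (vertical axis, log2) for measured genes in their order on chromosome 4 (horizontal axis, not to scale of distance), with line 1 as red circles and line 2 as grey squares. From HSD17B13 to FAM13A-AS1 line 1 lies 1.83 to 4.18 above naive cells, and line 2 lies between -0.59 and 0.25 of them.

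Away from chromosome 4, NTS, which encodes the peptide neurotensin, stood at 6.26 in line 1 and 10.7 in line 2, against 5.06 and 5.86 in naive S and K (3.02 ± 2.05, adjusted p = 0.323). CCL2, a chemokine for monocytes, stood at 8.72 in line 1 and 5.28 in line 2, against 5.13 and 4.70. The next genes were named after their values were seen and stood far from naive cells in 1 line. The fatty acid receptor CD36 stood at 8.24 in line 2 and 4.02 in line 1, against 4.66 and 4.22 in naive cells, the hyaluronan receptor CD44 at 8.23 in line 2 and 5.23 in line 1, against 5.86 and 6.23, and IFITM2 at 10.6 in line 2 and 8.28 in line 1, against 8.61 and 8.23. CD24, a surface glycoprotein, stood at 7.03 in line 2 and 10.5 in line 1, against 9.65 and 9.73 in naive cells. No test of line against line was made beyond these set means.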

How the data were processed

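The authors' deposited table holds log2-like summarised levels of 53617 features on 32 arrays. Transcriptome Analysis Console 4.0 is the tool listed, per the submitters' processing notes. How arrays were normalized was not given in the sources. The members and gene lists were chosen with earlier results of these data known. Genes were named through the platform annotation, with symbols looked up in RefSeq. The 4 arrays of a set were averaged and limma 3.58.1 (R 4.3.3; lmFit, eBayes, 4 residual degrees of freedom) was fitted to the 8 set means, tested first on simulated data. Precision is limited by the number of lines, naive sets and arrays. Named genes were the 15 widest gaps between both lines and both naive sets in each direction at an unadjusted p under 0.05, up to 3 members of each of 33 lists, BCR, 5 genes in each direction against the imatinib lines and 5 between the lines. Some later choices are marked in the text. Other genes outside this rule carry no mark there, among them CCP110, ARRDC3, DEPDC5, DDIT4, SREBF1, SREBF2, LYN, BCL2, IFIT3 and TRIM21. Alternatives changed the filter, features, normalization, sets in the fit, unit, technical axis (first principal component of arrays about their set mean) and replicates. Y-linked genes and XIST were not named.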

Additional observations from a re-analysis of the deposited data

Results flagged for a closer look

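Among 520 sets of 4 arrays (130 named genes, 2 nilotinib lines and 2 naive sets), 27 held 1 array whose gap to its nearest neighbour took more than 0.83 of the range, close to the 1 in 20 that chance gives. In nilotinib line 1 the lone arrays read 7.79 for CR1L (low), 7.12 for GSTO1 (high), 7.89 for IKZF1 (high) and 8.01 for ATG14 (low). In nilotinib line 2 they read 7.48 for BCR, 7.63 for IGF1R, 7.66 for GSTT1 and 7.16 for CTH (low, all on array 4), and 7.97 for EPOR and 8.07 for CEP162 (high, both on array 3). In naive S the low arrays read 7.24 for RELN, 7.44 for DDR1, 7.02 for FCN1 and 9.33 for POMP, and the high ones 5.57 for SESN3, 7.12 for CD80, 7.87 for CCNB2, 8.18 for KLF1 and 10.4 for RPL39. In naive K the low arrays read 5.71 for MBNL3, 7.26 for NAV2, 4.29 for MIR301B, 7.43 for KIF23, 6.50 for GFI1B, 6.08 for KRT14 and 6.34 for ATG16L1, and the high array 7.60 for CT83. Arrays naive K 1 and naive S 2 had 5 each, the most of any array.

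For 2 named genes both nilotinib lines lay above both naive sets while all 4 imatinib lines lay below both. CT83 stood 0.97 and ARHGAP42 1.10 higher in the nilotinib lines than in the imatinib lines. In limma neither passed (adjusted p = 0.638 for both).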

How the results depend on the processing

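The 66 calls against naive cells became 99 without the dimmest 40% of genes (all 60 of the 66 that were left stayed called) and 61 with the mean of a gene's features. They became 0 with every array feature (15303 at an unadjusted p under 0.05), 0 with quantile normalization (3124), 0 with only the nilotinib and naive sets in the fit (4666) and 0 with the technical axis taken out (1874), all by limma. They became 1615 with arrays shifted to the same median and 3696 with 32 arrays and the set as a random block, both holding all 66. Leaving out 1 set at a time gave 0 to 1187 calls, with the lone sample of an arm assumed to vary like the other groups. The 10032 genes outside both naive sets became 6194 without the dimmest genes, 34149 over every feature and 2410 when all 8 arrays had to lie outside. The share of them above naive cells was 48.5%, and 71.5% without the dimmest genes, 34% over every feature and 69% after the median shift. Against the imatinib lines the 0 calls became 2 with every feature and 384 with the random block, and 0 to 44 when 1 set was left out. With the line number as a replicate block in the 6 resistant lines there were again 0 calls (936 at an unadjusted p under 0.05). No replicate block was possible against naive cells, whose arrays carry letters and no line number. Over all settings 1621 values of 130 named genes kept their direction and their side of the threshold, 233 newly passed it, 184 fell short of it and 14 turned in sign, none of them called. With the technical axis taken out ABL2 turned to -0.186, POMP to -0.186, HARS1 to -0.040, OSM to 0.060, TEX14 to 0.019, WT1 to -0.002 and SGIP1 to -0.049. Quantile normalization gave -0.113 for DDR1 and -0.169 for WT1. With 1 set left out BCR ran between -0.204 and 0.975, WT1 between -0.290 and 0.368 and SGIP1 between -0.211 and 0.267. List medians, which have no test, turned in sign in 33 instances over 18 of the 33 lists. The cause of these changes was not tested. Small differences between dim genes are limited by array signal.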

Other observations

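Runs of neighbouring genes that all differed from naive cells by at least 1 were also seen outside the chromosome 4 stretch. Nilotinib line 1 had 2 runs of 5 genes on chromosome 15, from ARHGAP11B to MTMR10 (median 1.31) and from LCMT2 to MAP1A (median 1.22). On chromosome X, 6 GAGE genes from GAGE12J to GAGE2A, near-identical cancer-testis genes, lay at a median of -2.55 in nilotinib line 1, -1.83 in low imatinib line 2 and -1.38 in high imatinib line 2. The USP17L cluster with MIR548I2 on chromosome 4 lay at -1.64 in nilotinib line 1 and -1.72 in line 2, and the MIR3689 cluster on chromosome 9 at -1.30 in line 1. Genes of the last 3 clusters are near-identical copies and count as few independent measurements. The run search was added after the data had been seen, and it carries no test.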
